A study of Homo sapiens with 6 samples.

Results

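The genes described here are secreted and cell-surface serine proteases of 5 groups, with the receptor of 1 of them: the TMPRSS genes with hepsin (HPN), the PRSS genes, the plasminogen activators PLAU and PLAT with the receptor PLAUR, the kallikreins (KLK1 to KLK15) and the proprotein convertases (PCSK genes and FURIN). They were taken by gene symbol alone, which gave 66 of the 20289 genes in the deposited table. The families were chosen with earlier results of these data known, so their counts beside all genes are a description. The 66 genes comprise 16 of the TMPRSS group, hepsin included, 25 PRSS genes, 3 genes of the plasminogen activator system, 15 kallikreins and 7 convertases. RNA was sequenced from T24, an established bladder cancer line, grown in RPMI medium with fetal serum and transfected by lipofection. The LINC00665 group (n = 3) received a pcDNA3.1 plasmid that carries LINC00665, a long non-coding RNA, for overexpression, and its control, the Vector group (n = 3), received Vector plasmids. All libraries thus share the line and the transfection procedure by their labels, and the study asked which transcripts differ when LINC00665 is overexpressed.

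Serine proteases cut proteins with an active-site serine, and most are made as zymogens that are activated by cleavage. At the surface of epithelial cells, TMPRSS proteases, matriptase (ST14) and prostasin (PRSS8) activate one another, cleave the epithelial sodium channel and protease-activated receptors, and are held in check by the Kunitz inhibitors SPINT1 and SPINT2. Urokinase (PLAU), bound to its receptor PLAUR, turns plasminogen into plasmin, which breaks down matrix, and is blocked by serpins such as SERPINB2. Proprotein convertases work inside the secretory pathway and cut precursors of hormones, growth factors and metalloproteinases after basic residues.

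The libraries hold 17289788 to 22725687 expected counts each. By a check of sample identity, the labelled line was not matched by 3 of the 6 libraries, so groups are named by label throughout, and line and plasmid cannot be told apart in any difference given here. In such bulk RNA, fewer cells that express a gene and less RNA per cell cannot be told apart either. Of 10 urothelial markers, 8 were tested and all 8 were higher under the LINC00665 label. The 10 summed to 5682 to 6351 CPM (counts scaled to a common library total) in the libraries labelled LINC00665. In those labelled Vector they summed to 8.54 to 12.8 CPM, where GATA3 had 3 counts in all. Of the 2 untested markers, UPK3A had 30 counts under the LINC00665 label and 0 under the Vector label. UPK1A went the other way, with 2 against 33 counts. Of 8 kidney tubule markers, 1 was higher and 4 were lower under the LINC00665 label, and their sum was 31.2 to 34.3 CPM against 328 to 498 CPM, with PAX2 at 0.0587 against 34.0 CPM and HAVCR1 at 0.0335 against 22.6 CPM on average. Fibroblast markers summed to 72.1 to 87.3 CPM against 1.92 to 4.39 CPM, and endothelial markers to 10.5 to 12.6 CPM against 0.3 to 1.1 CPM. These sums were uneven within the lists. COL1A1 alone averaged 67.5 against 1.74 CPM, and 2 fibroblast and 3 endothelial markers were called higher. COL3A1 overlapped between the labels, and LUM (0.165 against 0.151 CPM) and CDH5 (0.458 against 0.46 CPM) were level. Leukocyte markers summed to at most 0.157 CPM in any library. LINC00665 itself has 0 rows in the table and its level was not analysed here. Differences across the whole table were also common: at a Benjamini-Hochberg adjusted p of 0.05 by edgeR, 34.2% of the 13552 tested genes were higher and 29.3% lower under the LINC00665 label, 63.5% in all. With total-count scaling the balance turned, to 4174 genes higher and 4770 lower, against 4634 and 3977.

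Under the LINC00665 label, 20 serine protease genes were higher and 0 lower, out of 26 that passed the filter on low counts. Of all 13552 tested genes, 34.2% were higher and 29.3% lower. The members that rose included the epithelial surface proteases TMPRSS2, TMPRSS4 and PRSS8, which were at or near 0 counts under the Vector label, the plasminogen activators PLAT and PLAU, and the convertases PCSK5 and PCSK6. The urokinase receptor PLAUR, the convertases FURIN and PCSK7, and PRSS16, PRSS23 and PRSS53 did not pass the test. At an unadjusted p of 0.05, edgeR, DESeq2 and limma each also found 0 members lower. The filter limits this count. Of the 26 tested members, 17 were not past its count minimum in all 3 Vector libraries. They entered with their level under the LINC00665 label, which favours a rise. In the whole table, 1722 tested genes were of that kind. Of the 4634 genes higher in all, 3067 were past the minimum in all 3 Vector libraries, as were 3975 of the 3977 lower. A count of rises among such members is therefore not particular to them. For the members at or near 0 counts under the Vector label, the direction is tied to the filter. Some, such as PRSS53 and PCSK4, were past the minimum in part of the Vector libraries, and PRSS53 overlapped between the labels. The other 9 were past the count minimum in all 3 Vector libraries. Among those 9, 4 rose, 0 fell and 5 did not pass, where 25.9% of all 11830 genes of that kind were higher and 33.6% lower. For 5 of the 9 members and 0 in the other direction, the 3 libraries labelled LINC00665 lay above all 3 labelled Vector; of the 11830 genes, 25.4% lay above and 43% below. The median log2 fold change was 0.74 over the 9 members and -0.14 over the 11830 genes.

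**Figure D1:**
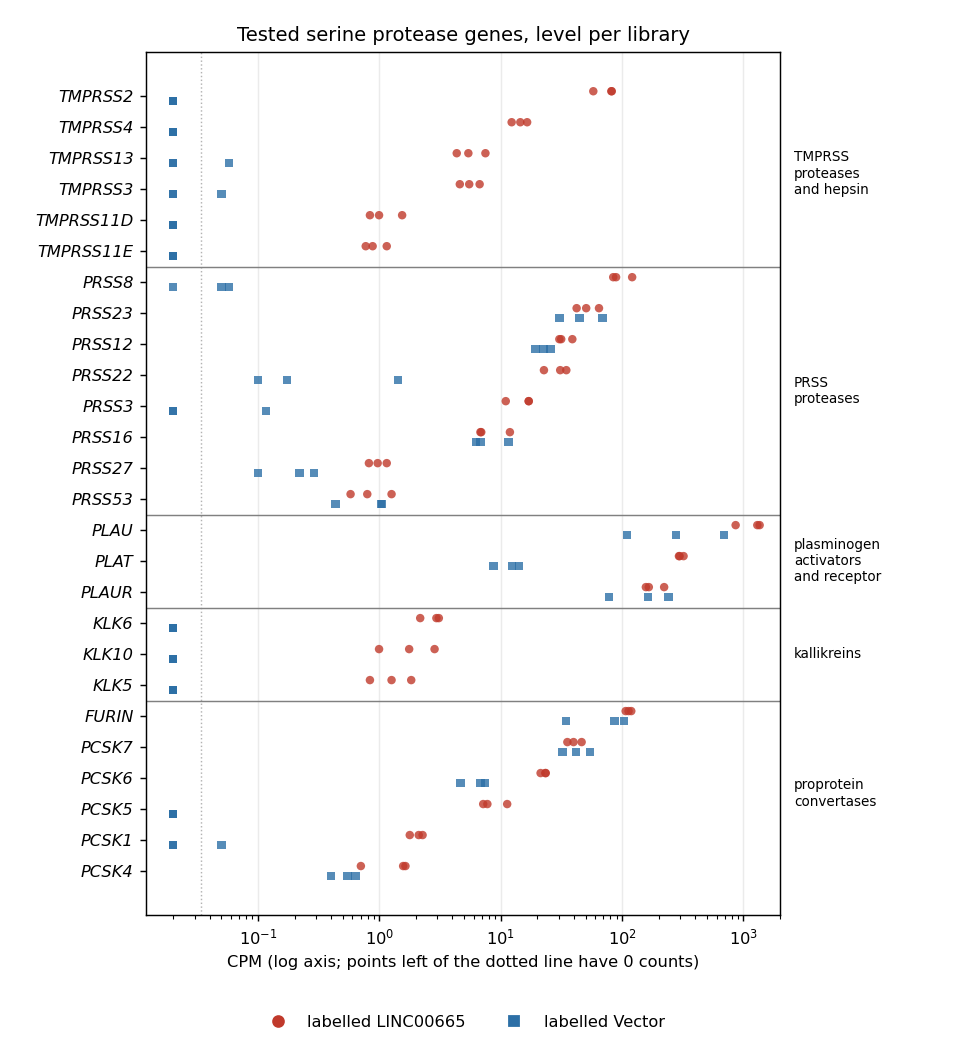
Level of the 26 tested serine protease genes in CPM (log axis) in each library labelled LINC00665 (circles, n = 3) and Vector (squares, n = 3), grouped by family; points left of the dotted line have 0 counts. The TMPRSS genes and kallikreins stand at or near 0 under the Vector label, while PLAUR, PRSS16, PRSS23, PRSS53 and PCSK7 overlap between the labels.

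Among the 66 genes, 23 had 0 counts in all 6 libraries. A further 18 had counts under the LINC00665 label only, 24 under both and 1, PRSS33 with 2 counts, under the Vector label only. A mean of at least 1 CPM was reached by 23 members under the LINC00665 label and by 9 under the Vector label. The 40 untested members had means of at most 0.864 CPM, so differences among them were not read.

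The promoters of the members differ in how many CpG dinucleotides they hold, and the sequences below set kallikreins and a convertase that were at or near 0 counts under the Vector label beside members measured under both labels. Each is the stretch of 250 bases before a start site in RefSeq (GRCh38.p14), written 5′ to 3′ on the gene's strand, with CpG dinucleotides in capitals. The start used was the nearest to that of a principal transcript in GENCODE release 29, at most 500 bases away. Such a window can lie inside the outer bounds of the gene, as for PLAU and PCSK6. The windows are KLK6 at chr19:50969592-50969841 (minus strand), KLK10 at chr19:51019710-51019959 (minus), PCSK1 at chr5:96433249-96433498 (minus), PCSK6 at chr15:101489708-101489957 (minus), PLAU at chr10:73910882-73911131 (plus) and PLAUR at chr19:43670170-43670419 (minus).
KLK6: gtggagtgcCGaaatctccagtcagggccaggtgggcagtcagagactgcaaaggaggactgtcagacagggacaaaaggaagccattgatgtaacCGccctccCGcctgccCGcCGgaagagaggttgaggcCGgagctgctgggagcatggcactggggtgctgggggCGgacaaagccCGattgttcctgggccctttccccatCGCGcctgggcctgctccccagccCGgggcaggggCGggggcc
KLK10: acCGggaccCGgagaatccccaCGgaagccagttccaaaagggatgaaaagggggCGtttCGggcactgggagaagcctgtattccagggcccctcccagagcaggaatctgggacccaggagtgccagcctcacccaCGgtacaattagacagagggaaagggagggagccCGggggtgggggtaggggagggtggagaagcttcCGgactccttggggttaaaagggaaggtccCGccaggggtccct
PCSK1: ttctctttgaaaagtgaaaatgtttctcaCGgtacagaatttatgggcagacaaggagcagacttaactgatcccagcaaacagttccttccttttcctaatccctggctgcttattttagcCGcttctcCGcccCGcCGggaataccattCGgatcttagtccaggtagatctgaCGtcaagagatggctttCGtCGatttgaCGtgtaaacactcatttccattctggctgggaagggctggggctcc
PCSK6: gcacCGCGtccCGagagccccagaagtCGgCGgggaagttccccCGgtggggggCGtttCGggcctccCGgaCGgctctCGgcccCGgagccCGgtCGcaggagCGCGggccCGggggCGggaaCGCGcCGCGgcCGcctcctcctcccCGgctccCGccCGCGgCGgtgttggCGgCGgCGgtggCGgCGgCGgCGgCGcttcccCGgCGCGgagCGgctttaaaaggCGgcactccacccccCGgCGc
PLAU: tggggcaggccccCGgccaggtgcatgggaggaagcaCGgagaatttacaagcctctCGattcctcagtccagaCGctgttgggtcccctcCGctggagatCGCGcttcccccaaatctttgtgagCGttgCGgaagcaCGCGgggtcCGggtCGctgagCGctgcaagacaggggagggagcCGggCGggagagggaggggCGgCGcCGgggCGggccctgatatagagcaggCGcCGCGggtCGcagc
PLAUR: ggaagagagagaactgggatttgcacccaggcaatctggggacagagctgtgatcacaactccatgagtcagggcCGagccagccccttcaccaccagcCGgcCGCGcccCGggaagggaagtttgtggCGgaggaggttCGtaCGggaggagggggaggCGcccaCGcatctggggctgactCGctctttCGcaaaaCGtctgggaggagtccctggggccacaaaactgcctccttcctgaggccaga

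The KLK6, KLK10 and PCSK1 windows hold 12, 9 and 10 CpGs, against 43 in PCSK6, 24 in PLAU and 13 in PLAUR. Such a window was found for 51 of the 66 members; TMPRSS2, TMPRSS4, PRSS8 and PLAT are among those without one here. Over 13966 genes with a window, the median was 18 CpGs, and over the 51 members it was 6. The 8 members with a window that were past the count minimum in all Vector libraries had a median of 28.5 CpGs (range 8 to 43). The 10 that rose and were not past that minimum in all Vector libraries had a median of 9.5 (range 1 to 24). These 2 sets were formed from the counts, so the contrast is a description and was not tested. The letters TGANTCA read the same on both strands and are the core of AP-1 sites. They occur in 6 of the 51 members' windows (11.8%) and in 4.9% of all. The 6 are PLAUR, PRSS1, PRSS2, PRSS3, TMPRSS11F and TMPRSS15, and of these only PLAUR and PRSS3 were tested. Among the 13 members with a window that were called higher, 1 has the letters (7.69%). PLAUR has them 186 bases before its start, and PLAU has none in this window. Other motifs were searched in the same windows. The GC box (GGGCGG) was in 45.1% of the members' windows and 58.5% of all, and the TATA box in 13.7% and 9.06%. A grainyhead motif was in 0 of the members' windows and in 1.25% of all. None of these shares was tested, and no factor's binding was measured.

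The TMPRSS genes are type II membrane proteases anchored by their N terminus, and 6 were tested. All 6 passed the filter through their level under the LINC00665 label alone, so that they rose was tied to the filter and their levels are the result. TMPRSS2, which in other tissues is known for priming viral spike proteins, stood at 81.5, 82.2 and 57.9 CPM in the libraries labelled LINC00665 1 to 3 and had 0 counts in all 3 labelled Vector. This makes it at least 1379.9-fold higher, taking 3 counts over the whole Vector group as the limit of detection (0.054 CPM). TMPRSS4, an epithelial protease often raised in carcinomas, stood at 16.5, 14.5 and 12.3 CPM under the LINC00665 label and at 0 counts under the Vector label, a difference of at least 269-fold. In the hg38 build with the GENCODE release 29 annotation, TMPRSS2 lies on the minus strand at chr21:41464551-41531116 and TMPRSS4 on the plus strand at chr11:118077012-118121890, where SMIM35 overlaps it on the opposite strand. Whether counting used the strand is not given in the sources used here, so reads of such partners cannot be told apart. Neither gene overlapped between the labels, and edgeR's adjusted p was 3.0e-06 for TMPRSS2 and 8.1e-06 for TMPRSS4.

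TMPRSS13 and TMPRSS3 had 1 Vector count each. TMPRSS13, which cleaves after paired basic residues, was at 5.41, 4.34 and 7.48 CPM in the libraries labelled LINC00665 and had 1 count in all under the Vector label. Its ratio was 316, with a 95% counting interval of 56.4 to 12518. TMPRSS3, a gene of hearing in the inner ear, was at 5.5, 6.7 and 4.6 CPM against 1 count in all, a ratio of 312 with an interval of 55.7 to 12378. These intervals, and the limits used where a group has 0 counts, cover counting error only. The adjusted p by edgeR was 1.2e-05 for TMPRSS13 and 9.3e-06 for TMPRSS3, and for both genes every library labelled LINC00665 lay above every library labelled Vector. Without the library that held the Vector count, which leaves 0 counts, the fitted log2 fold change was 9.92 for TMPRSS13 and 9.84 for TMPRSS3, against 8.01 and 8 with it.

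The airway trypsin-like protease TMPRSS11D and its neighbour in sequence TMPRSS11E, both of squamous and airway epithelium, completed the 6. TMPRSS11D stood at 0.836, 1.54 and 0.994 CPM and TMPRSS11E at 0.88, 0.772 and 1.15 CPM in the libraries labelled LINC00665, with 0 counts under the Vector label, so that they were at least 20.7-fold and at least 17.2-fold higher (adjusted p by edgeR 0.00062 and 0.00049). TMPRSS11D and TMPRSS11E lie at the ends of a run of 5 TMPRSS11 genes on chromosome 4, and TMPRSS11A, TMPRSS11B and TMPRSS11F between them had 0 counts in all 6 libraries. Of the members that were not tested, hepsin had 7 counts under the LINC00665 label and 0 under the Vector label, and TMPRSS9 had 1 and 6.

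Of the 8 PRSS genes tested, 5 rose and 3 did not pass, where 34.2% of all tested genes rose. Of the 8, PRSS12, PRSS16 and PRSS23 were past the count minimum in all Vector libraries. Of these, 1 rose and 2 did not pass, where 25.9% of all such genes were higher. The other 5 were not past it in all Vector libraries. Those 5 entered with their level under the LINC00665 label, which favours a rise, although PRSS53 did not rise. Prostasin (PRSS8), a membrane-anchored protease of epithelia that works with matriptase, averaged 54.0 ± 10.5 FPKM under the LINC00665 label (SD, n = 3), the highest level per length among the PRSS genes there. It stood at 84.5, 121 and 89.2 CPM in the libraries labelled LINC00665 and at 0.0499, 0.0578 and 0 CPM, 2 counts in all, in those labelled Vector. The ratio was 2721, with a 95% counting interval of 753 to 22469.9, and edgeR gave an adjusted p of 2.9e-07. PRSS8 lies at chr16:31131433-31135762 on the minus strand, 3.16 kb from PRSS36 and 41.8 kb from PRSS53. Its neighbours were low under both labels: PRSS36 had 25 and 7 counts and was not tested, and PRSS53 averaged 0.878 ± 0.348 and 0.838 ± 0.351 CPM (SD, n = 3 each; adjusted p by edgeR 0.72).

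PRSS22, a tryptase of airway epithelium, stood at 22.7, 30.9 and 34.7 CPM under the LINC00665 label and at 0.0999, 0.174 and 1.43 CPM under the Vector label. Vector 3 alone carried 26 of the 31 Vector counts, and the log2 fold change was 5.86 ± 0.66 (SE; adjusted p by edgeR 0.00011). Without Vector 3 it was 7.87. PRSS3, a trypsinogen, stood at 11.0, 17 and 17 CPM under the LINC00665 label and had 2 counts under the Vector label, a ratio of 411 (interval 113 to 3399, adjusted p by edgeR 6.0e-06). Both counts were in Vector 2, and the fitted log2 fold change of PRSS3 was 8.61 with and 11.30 without that library, the second being an estimate against 0 counts. Its sequence is close to those of PRSS1 and PRSS2, which had 2 and 3 counts in all under the LINC00665 label, so the split of reads among the 3 is uncertain. The 4 exocrine pancreas markers had 0 counts in all 6 libraries.

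The remaining PRSS genes differed less. PRSS12 (neurotrypsin, which cleaves agrin) stood at 38.9, 30.4 and 31.5 CPM under the LINC00665 label and at 22.6, 19.4 and 25.6 CPM under the Vector label. The groups did not overlap and the log2 fold change was 0.74 ± 0.17 (SE; adjusted p by edgeR 0.0054). PRSS27 rose at a low level, averaging 0.98 ± 0.166 CPM against 0.203 ± 0.0957 CPM (SD, n = 3 each; log2 fold change 2.41, adjusted p by edgeR 0.0021).

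PRSS23 and PRSS16 overlapped between the labels. PRSS23, a secreted protease, stood at 42.2, 50.6 and 64.5 CPM under the LINC00665 label and at 44.4, 30.4 and 68.8 CPM under the Vector label (log2 fold change 0.29 ± 0.29, SE; adjusted p by edgeR 0.4). Without Vector 3, PRSS23 passed (log2 fold change 0.65, adjusted p by edgeR 0.031). FZD4 overlaps PRSS23 on the opposite strand. PRSS16, a protease of thymic epithelium, stood at 6.91, 6.8 and 11.9 CPM against 6.24, 6.82 and 11.6 CPM (log2 fold change 0.21 ± 0.31, SE; adjusted p by edgeR 0.59).

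**Figure D2:**
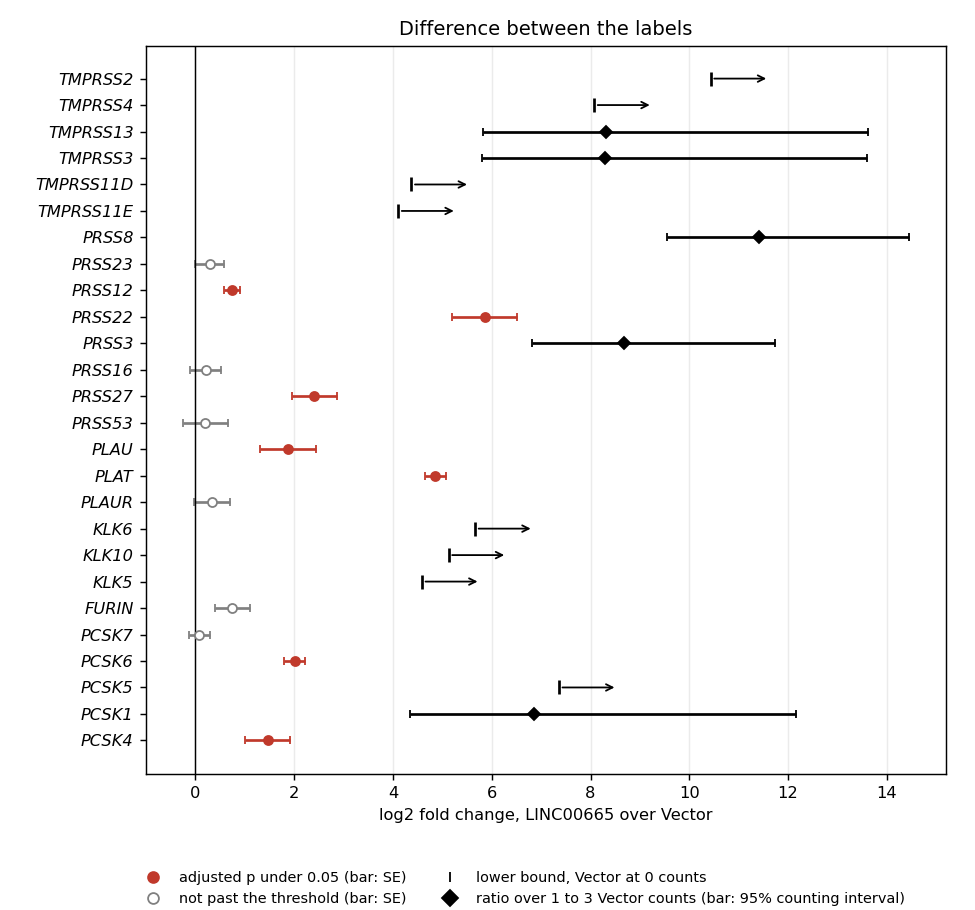
Log2 fold change of the tested serine protease genes, LINC00665 over Vector, by family. Members with 0 Vector counts are drawn at their lower bound, those with 1 to 3 Vector counts with the ratio and its 95% counting interval, and the others with the edgeR estimate and its SE. PLAUR, FURIN, PRSS16, PRSS23, PRSS53 and PCSK7 did not pass the test.

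Both plasminogen activators rose, while the receptor did not pass the test. Urokinase, PLAU, stood at 1359, 1300.4 and 862 CPM in the libraries labelled LINC00665 and at 278, 109.9 and 689 CPM in those labelled Vector. The groups did not overlap, but the highest Vector library was 6.27 times the lowest, against 1.58 times under the LINC00665 label. The log2 fold change was 1.88 ± 0.57 (SE; adjusted p by edgeR 0.019). The call was lost without Vector 1 (log2 fold change 1.72, adjusted p by edgeR 0.074) and without LINC00665 2 (1.76, adjusted p 0.067), and without Vector 3 the log2 fold change was 2.77 (adjusted p 0.00047). PLAU lies at chr10:73909177-73917497 on the plus strand, and C10orf55 overlaps it on the opposite strand.

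Tissue plasminogen activator, PLAT, which acts on fibrin clots, showed the larger and steadier difference. It stood at 294, 298 and 321 CPM under the LINC00665 label and at 8.69, 14.1 and 12.4 CPM under the Vector label. The log2 fold change was 4.86 ± 0.22 (SE; adjusted p by edgeR 8.5e-07), and the gap between the labels was far wider than the spread within either. PLAT lies at chr8:42175233-42207724 on the minus strand.

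PLAUR, which holds urokinase at the cell surface, stood at 157, 222 and 166 CPM under the LINC00665 label and at 78.1, 163 and 240.1 CPM under the Vector label. The groups overlapped, with Vector 3 the highest of all 6, and the log2 fold change was 0.34 ± 0.37 (SE; adjusted p by edgeR 0.44). Per transcript length (deposited FPKM), PLAU exceeded PLAUR 5.03-, 3.4- and 3.04-fold in the libraries labelled LINC00665 and 2.12-, 0.435- and 1.7-fold in those labelled Vector. PLAT was 1.04, 0.753 and 1.07 times PLAUR under the LINC00665 label and 0.0593, 0.0474 and 0.0292 times PLAUR under the Vector label, so the receptor and PLAT had similar levels only under the LINC00665 label.

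These 3 genes made up most of the family's RNA. They held 80.4%, 78.3% and 73.5% of the summed FPKM of the 66 genes in the libraries labelled LINC00665 and 74.4%, 75.2% and 90.5% in those labelled Vector. PLAU had the highest FPKM of all members in every library except Vector 2, where PLAUR came first. The convertases held 5.08%, 4.53% and 6.53% under the LINC00665 label and 16.1%, 17% and 3.57% under the Vector label, so Vector 3 lay apart from the other Vector libraries. The TMPRSS genes held 4.13%, 3.87% and 3.76% against 0.0203%, 0.0889% and 0.00566%.

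**Figure D3:**
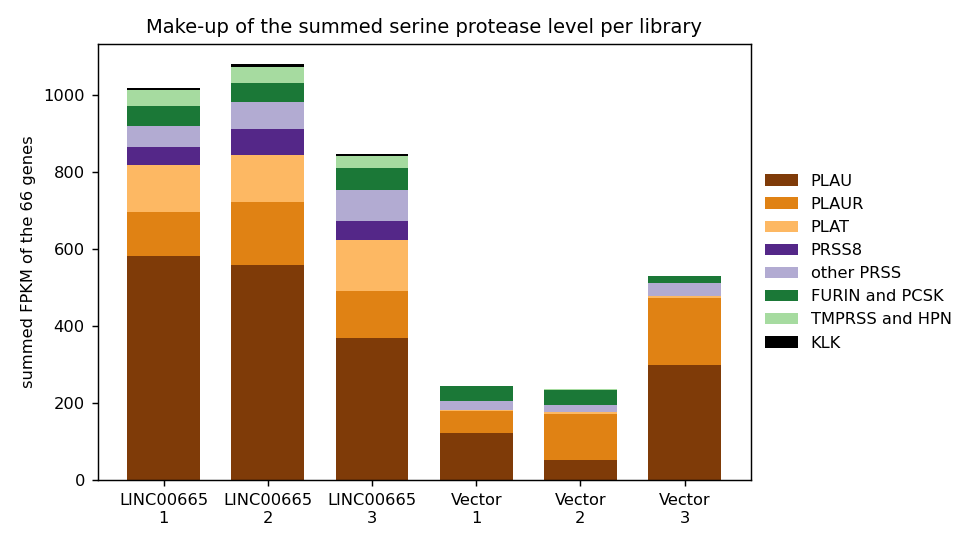
Summed FPKM of the 66 genes (stacked bars from 0) in each library, LINC00665 left of Vector, split into PLAU, PLAUR, PLAT, PRSS8 and the remaining genes by family. The sums are 1017, 1079 and 847 FPKM in the libraries labelled LINC00665 and 246, 236 and 530.0 FPKM in those labelled Vector, and PLAU, PLAUR and PLAT fill most of every bar.

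The kallikreins, secreted proteases of glands and skin that activate one another, lie side by side at chr19:50819148-51084245, a stretch of 265 kb. Of the 15, 3 were tested, each with 0 counts under the Vector label. All 3 passed the filter through the LINC00665 label alone, which tied their direction, and all 3 were past the threshold. In the libraries labelled LINC00665, KLK6 stood at 2.95, 2.17 and 3.09 CPM (at least 50.6-fold higher, adjusted p by edgeR 8.9e-05). KLK10 stood at 1.76, 2.85 and 0.994 CPM (at least 34.9-fold higher, adjusted p by edgeR 0.00074) and KLK5, a protease of skin shedding, at 0.836, 1.83 and 1.26 CPM (at least 24-fold higher, adjusted p by edgeR 0.00065). Per length, KLK6 averaged 1.93 ± 0.388 FPKM under the LINC00665 label, against 503 ± 116 FPKM for PLAU in the same libraries (SD, n = 3).

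The other kallikreins were not tested. KLK1, tissue kallikrein, had 9, 26 and 18 counts under the LINC00665 label and 0 under the Vector label. KLK9 had 14 counts against 0, KLK3 (prostate-specific antigen) 12 against 0 and KLK14 had 3 against 2. KLK2, KLK4, KLK7, KLK12 and KLK13 had 0 counts in all 6 libraries. The 2 prostate markers measured summed to 71.7 to 104 CPM under the LINC00665 label and 8.16 to 19.6 CPM under the Vector label, and their part in the kallikrein values was not tested.

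**Figure D4:**
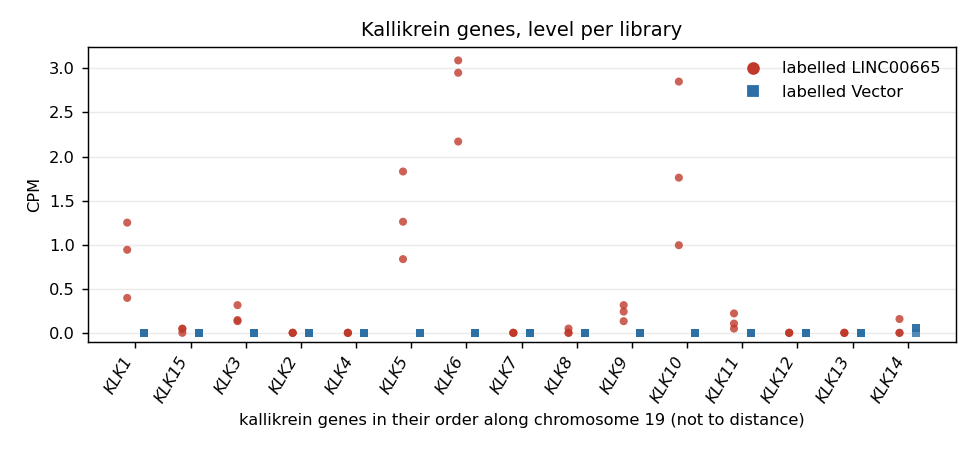
Level in CPM of the 15 kallikrein genes in each library labelled LINC00665 (circles, n = 3) and Vector (squares, n = 3), in their order along chromosome 19 and not to distance. KLK6, KLK10 and KLK5 reach the highest levels under the LINC00665 label, and KLK14 is the kallikrein with counts under the Vector label, 2 in all.

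Of the convertases, 6 were tested, 4 rose and 2 did not pass, where 34.2% of all tested genes rose. FURIN, PCSK6 and PCSK7 were past the count minimum in all Vector libraries. Of these, 1 rose and 2 did not pass, where 25.9% of all such genes were higher. PCSK1, PCSK4 and PCSK5 were not past it in all Vector libraries. PCSK1 and PCSK5 entered through the LINC00665 label alone, while PCSK4 was past the minimum in part of the Vector libraries. PCSK6, which acts at the cell surface and in the matrix, stood at 23.3, 23.5 and 21.3 CPM under the LINC00665 label and at 7.44, 6.82 and 4.66 CPM under the Vector label (log2 fold change 2.01 ± 0.21, SE; adjusted p by edgeR 8.0e-05). PCSK5, a convertase of the constitutive and regulated pathways, stood at 11.3, 7.76 and 7.17 CPM against 0 counts (at least 164-fold higher, adjusted p by edgeR 2.8e-05). PCSK1, the prohormone convertase of endocrine cells, stood at 2.11, 2.27 and 1.78 CPM against 1 count in all, a ratio of 115 (interval 20.2 to 4558, adjusted p by edgeR 5.2e-05). Its fitted log2 fold change was 6.55, and 8.40 without Vector 1, which held that count. None of the 3 overlapped between the labels.

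PCSK4, known from germ cells, stood at 0.704, 1.64 and 1.57 CPM under the LINC00665 label and at 0.4, 0.636 and 0.548 CPM under the Vector label (log2 fold change 1.46 ± 0.45, SE; adjusted p by edgeR 0.021). It is close to the threshold: the call was lost without Vector 1 (adjusted p by edgeR 0.079), without LINC00665 2 (0.077) and without LINC00665 3 (0.073), and with limma on log2(FPKM + 1) (log2 fold change 0.39, adjusted p 0.069) or log2(FPKM + 0.1) (1.05, adjusted p 0.057). REEP6 overlaps it on the opposite strand.

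FURIN, the most widely expressed convertase, stood at 119, 107 and 113 CPM under the LINC00665 label and at 104, 86.4 and 34.4 CPM under the Vector label. The groups did not overlap, but the log2 fold change of 0.75 ± 0.35 (SE) did not pass the test (adjusted p by edgeR 0.088). It passed without Vector 3 (log2 fold change 0.41, adjusted p by edgeR 0.033) and without Vector 1 (1.05, adjusted p 0.048). With all 6 libraries it passed by DESeq2 (log2 fold change 0.78, adjusted p 0.049), and 11 of 14 alternatives did not pass. PCSK7 stood at 39.8, 35.4 and 46.4 CPM against 41.8, 54.4 and 32.3 CPM, with overlapping groups (log2 fold change 0.08 ± 0.21, SE; adjusted p by edgeR 0.77); its sign turned with total-count scaling (-0.08). TAGLN overlaps PCSK7 on the opposite strand.

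The biological coefficient of variation over all genes was 12.9% under the LINC00665 label and 28.7% under the Vector label.

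The genes that work with these proteases were followed in 4 lists, which hold 38 genes. These lists too were chosen with earlier results of these data known, so their counts are a description. The counts per list stand beside 34.2% of all tested genes higher and 29.3% lower. Of the 14 inhibitors, 10 were tested, 8 rose and 2 fell. Of the 10, 4 were not past the count minimum in all Vector libraries, SERPINB2 and SPINT1 among them, which favours a rise for these. SERPINB2, an inhibitor of urokinase, stood at 1808, 1469 and 1666 CPM under the LINC00665 label and at 0.541, 0.396 and 0.603 CPM under the Vector label (log2 fold change 11.77 ± 0.23, SE; adjusted p by edgeR 7.3e-08). SPINT1, which inhibits matriptase and prostasin, stood at 364, 474 and 338 CPM against 0.649, 0.347 and 2.03 CPM (log2 fold change 8.76 ± 0.55, SE; adjusted p by edgeR 4.1e-06). SPINT2 stood at 684, 734 and 666 CPM against 219, 207 and 208 CPM (log2 fold change 1.88 ± 0.13, SE; adjusted p by edgeR 7.4e-06). Prostasin and its inhibitor SPINT1 were thus both low under the Vector label.

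SERPINE2, an inhibitor of thrombin and urokinase, averaged 75.2 ± 4.99 CPM against 9.52 ± 3.13 CPM (SD, n = 3 each; adjusted p by edgeR 1.4e-05). SERPINB6 and SERPINI1, named after their values were seen, were the inhibitors that fell, by 1.00 and 2.63 on the log2 scale.

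Of the 7 plasminogen partners, 5 were tested, 2 rose, 1 fell and 2 did not pass. ENO1, a glycolytic enzyme that also binds plasminogen at the cell surface, averaged 2682 ± 236 CPM under the LINC00665 label and 5664 ± 591 CPM under the Vector label (SD, n = 3 each; adjusted p by edgeR 0.0007). S100A10, a plasminogen receptor, averaged 263 ± 32.5 against 194 ± 18.8 CPM (adjusted p by edgeR 0.011; SD, n = 3 each). LRP1, which takes up activator and inhibitor complexes, averaged 147 ± 21.3 against 91.9 ± 41.2 CPM (adjusted p by edgeR 0.04), although its groups overlapped. ANXA2, the partner of S100A10, averaged 1994 ± 81.8 against 1750.2 ± 210.1 CPM (adjusted p by edgeR 0.059). Plasminogen itself (PLG) had 4 counts under each label.

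Of the 7 cell-surface substrates, 6 were tested, 5 rose and 1 fell. Of the 6, 2 were not past the count minimum in all Vector libraries, SCNN1A among them. F2RL1, the protease-activated receptor cut by matriptase and TMPRSS2, stood at 204, 220.0 and 184 CPM under the LINC00665 label and at 5.14, 5.73 and 8.99 CPM under the Vector label (log2 fold change 5.10 ± 0.26, SE; adjusted p by edgeR 1.3e-06). SCNN1A, a subunit of the sodium channel that prostasin activates, stood at 131, 157 and 149.6 CPM against 0.4, 1.5 and 0.274 CPM (adjusted p by edgeR 4.3e-06). SCNN1G averaged 13.7 ± 2 against 2.88 ± 0.309 CPM and the thrombin receptor F2R 60.6 ± 8.4 against 19.8 ± 5.41 CPM (SD, n = 3 each; adjusted p by edgeR 3.2e-05 and 0.00027). F2RL2, named after its values were seen, was the 1 that fell, at 0.209 ± 0.0593 against 7.98 ± 7.16 CPM.

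Of the 10 related serine proteases, 6 were tested, 5 rose and 1 did not pass. Of the 6, 4 were not past the count minimum in all Vector libraries, ST14 and HTRA1 among them. Matriptase (ST14), the activator and target of prostasin, stood at 224, 211 and 169 CPM under the LINC00665 label and at 0.15, 0.174 and 0.0548 CPM under the Vector label (log2 fold change 10.74 ± 0.32, SE; adjusted p by edgeR 1.4e-07). HTRA1, a secreted protease of the matrix, averaged 66 ± 2.39 against 0.751 ± 0.41 CPM, and the mitochondrial HTRA2 59.5 ± 5.19 against 25.4 ± 2.58 CPM (SD, n = 3 each; adjusted p by edgeR 1.1e-06 and 8.4e-05). Across the 4 lists, 20 of 27 tested genes rose and 4 fell. Of the 27, 10 were not past the count minimum in all Vector libraries, which favours a rise among them. SERPINB2, SPINT1, SCNN1A, ST14 and HTRA1 are among these 10. Of the 17 past the count minimum in all Vector libraries, 10 rose, 4 fell and 3 did not pass, where 25.9% of all such genes were higher and 33.6% lower. The urothelial and kidney tubule markers moved with the labels as given above, and their part in these values was not tested.

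**Figure D5:**
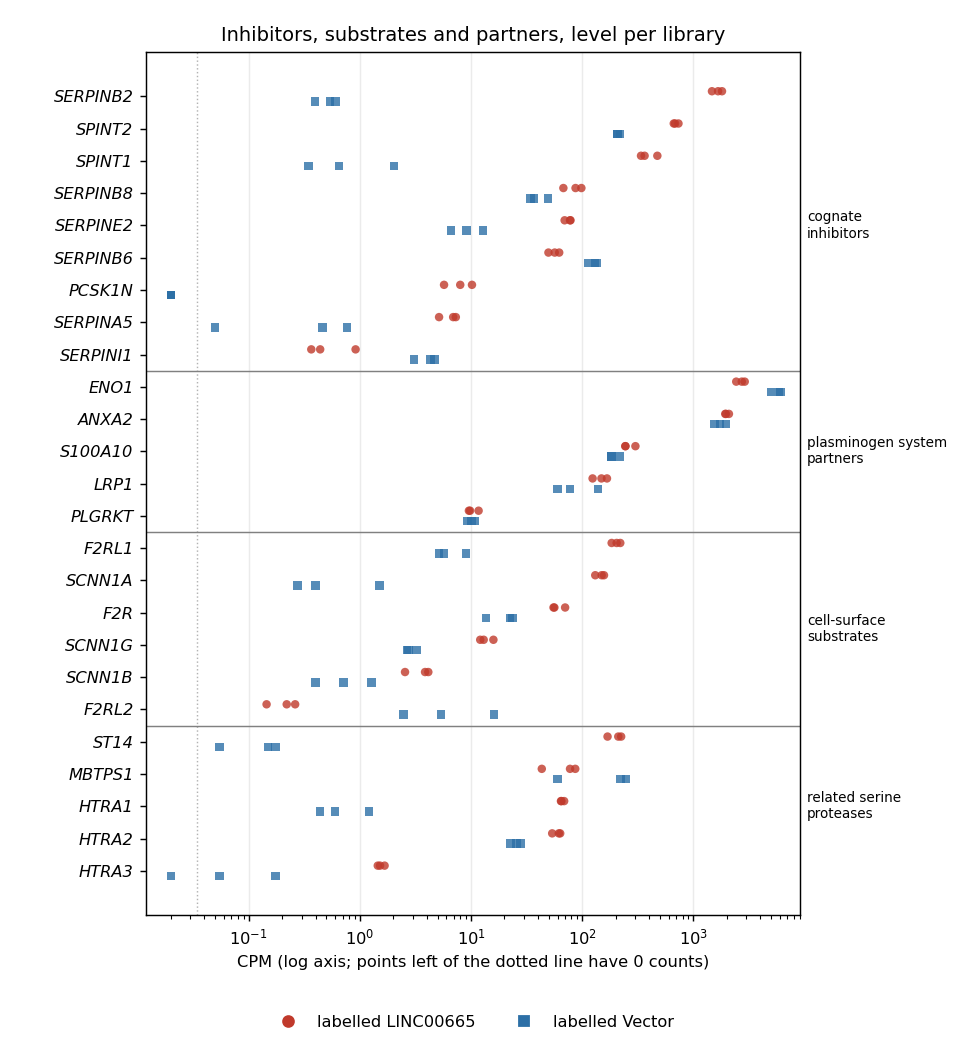
Level in CPM (log axis) of tested inhibitors, plasminogen partners, substrates and related proteases in each library labelled LINC00665 (circles, n = 3) and Vector (squares, n = 3). SERPINB2, ST14 and SPINT1 lie far above their Vector level, and none of them was past the count minimum in all Vector libraries. ENO1 lies below its Vector level.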

How the data were processed

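RNA was sequenced from 6 libraries, 3 per label; replicates came from independent experiments by the study's description. The submitters' processing notes name HISAT2 2.0.4 and hg38. For the counting tool, annotation and strand setting, the sources used here give no name. The deposited table gives, per gene and library, expected counts made by the authors, 88.3% to 89.4% of them whole, and FPKM values computed by the authors. Expected counts were rounded and tested with edgeR 4.0.16 (quasi-likelihood, TMM scaling, filterByExpr, a count minimum of 0.511 CPM; R 4.3.3), with Benjamini-Hochberg adjustment over 13552 genes and a threshold of 0.05. Levels are CPM of the library total. FPKM served to compare genes and, as log2(FPKM + 1), for limma 3.58.1; DESeq2 1.42.0 was another alternative. A group of 3 libraries at 0 counts was set at 3 counts over the group (0.0479 CPM under LINC00665, 0.054 CPM under Vector). The tests were run on simulated data first, in which only a small share of genes differed. That run cannot show how the tests perform where differences are as common as here. All 66 members matched GENCODE 29. Members with a mean of at least 1 CPM under either label are named with values, as are the 4 partner genes of smallest p per list with ST14, SPINT1, SPINT2 and F2RL1; some partner genes are counted in their lists but not reported here by name. Members and lists were chosen with earlier results of these data known. Libraries of 1 label differed by more than counting noise, so none was merged.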

Additional observations from a re-analysis of the deposited data

How the results depend on the processing

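The number of serine proteases higher under the LINC00665 label ran between 14, with a minimum of 1 CPM in 3 libraries, and 24 with DESeq2. Leaving out 1 library gave 18 to 23, and the number lower was 0 under every alternative run. Of 318 values of the 23 named members under alternatives, 302 kept direction and side of the threshold, 7 lost the call, 4 gained one and 5 turned sign. Those were PRSS16 without LINC00665 3 (-0.10) and PCSK7 with total-count scaling (-0.08), limma (-0.00), without Vector 3 (-0.09) and without LINC00665 3 (-0.03), none past the threshold under any of these; the cause was not tested. Without 1 library, PRSS16 ranged between -0.10 and 0.53 and PCSK7 between -0.09 and 0.29. A further minimum of 1 on the size of the log2 fold change left 5691 genes called over the whole table, 2156 of them lower, against 8611 and 3977, since it adds a condition. Without 1 library, 7458 to 9258 genes were called (4142 to 5033 higher, 3275 to 4225 lower), and 23 to 25 of the partner genes (18 to 21 higher, 4 to 5 lower). The median log2 fold change of all tested genes was 0.03 with TMM and -0.13 with total-count scaling. No clear pairing by replicate number was seen: same-numbered libraries deviated with correlations of 0.152, -0.132 and -0.154, and not every library correlated best with its own number. With 3 libraries per group, such weak values cannot exclude a pairing. A replicate block gave 20 members higher, 0 lower, 24 partner genes called (20 higher, 4 lower) and 7924 genes called in all (4419 higher, 3505 lower). KLK10, KLK5, TMPRSS11D and PCSK4 have no value under the stricter minimum. Depth limits the 40 untested members, and a permutation test of 3 against 3 cannot go below 0.1.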
